A study of Mus musculus with 6 samples.

Results

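Aldehyde dehydrogenases are the enzymes whose activity is widely used to sort stem-like cells from mammary tumours, and 10 mouse genes of this family were followed here: Aldh1a1, Aldh1a2, Aldh1a3, Aldh1a7, Aldh1b1, Aldh2, Aldh3a1, Aldh3a2, Aldh3b1 and Aldh7a1. They were taken by symbol from a count table of 49523 genes, and all 10 were found in it. The libraries come from EO771, a mouse mammary carcinoma line, with 3 libraries of cells labelled cancer stem cells (CSC) and 3 of cells labelled non-CSC. No genotype, treatment, time or sorting marker is given for either group, so it is not known here whether aldehyde dehydrogenase activity itself was used to obtain the CSC. Nothing in the labels says that replicates were separate cultures, and p-values therefore measure only the spread between these libraries, which may be technical. In bulk RNA, more cells that express a gene and more RNA per cell cannot be told apart.

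Enzymes of this family use NAD or NADP to oxidise aldehydes to acids. The ALDH1A enzymes turn retinal into retinoic acid, the ligand of the nuclear retinoic acid receptors. Aldh2 and Aldh1b1 encode mitochondrial enzymes that clear acetaldehyde, Aldh3a1 an enzyme of medium-chain and aromatic aldehydes, Aldh3a2 a fatty aldehyde dehydrogenase of the endoplasmic reticulum, and Aldh7a1 an enzyme of lysine breakdown. Fluorescent substrate assays of stem-like cells read the summed activity of several of these enzymes, and ALDH1A1 and ALDH1A3 are those most often named as its source in breast tumours.

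Library totals ranged from 27099879 to 35971131 counts, and the 10 genes together held 253517 counts, or 0.119% to 0.155% of a library. Of the 10, 7 passed the filter on low counts and were tested. The labelled line was checked on 11 epithelial and mammary carcinoma markers, all of them tested, of which 5 rose, 3 fell and 3 did not pass. Over all genes tested 66.5% passed at an adjusted p under 0.05, 33.4% higher and 33.1% lower in CSC. The keratin genes Krt8 and Krt18 were high in both groups, with Krt18 at 1255 CPM (counts scaled to the library size after TMM scaling) in non-CSC and 1267 CPM in CSC. The keratin gene Krt7 rose from 501 to 1057 CPM. The basal keratin gene Krt5 fell from 3.64 to 1.01 CPM. Krt14, another basal keratin gene and chosen after its value was seen, rose from 224 to 259 CPM (edgeR adjusted p = 1.22e-05). Epcam, which encodes an epithelial adhesion protein, fell from 21.3 to 10.3 CPM. Vim, the vimentin gene of mesenchymal cells, fell from 1271 to 867 CPM. The cadherin gene Cdh1 was low, at 0.952 and 0.752 CPM, and did not pass.

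The pair Aldh1a1 and Aldh1a7 needs its sequences first, because reads of close copies can be assigned to the wrong gene. Both lie on chromosome 19 of GRCm38, Aldh1a1 on the plus strand at 20492715 to 20643465 and Aldh1a7 on the minus strand at 20692953 to 20727562 (GENCODE M21). Their coding sequences, of 1506 bases each, were identical at 91.6% of positions and differed at 126 without a gap. No other pair of the 10 was above 69.5%, the value for Aldh1b1 and Aldh2. The coding stretch of 60 bases with the most differences, bases 317 to 376 from the A of the start codon, shows where reads of both genes separate. Capitals mark the 16 differing bases.
Aldh1a1: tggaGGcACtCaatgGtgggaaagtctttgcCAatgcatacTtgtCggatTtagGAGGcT
Aldh1a7: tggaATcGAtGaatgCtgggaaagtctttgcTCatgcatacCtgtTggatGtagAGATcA
The longest shared coding run, bases 757 to 856, shows a stretch where reads lying wholly inside it do not separate them.
Aldh1a1 and Aldh1a7: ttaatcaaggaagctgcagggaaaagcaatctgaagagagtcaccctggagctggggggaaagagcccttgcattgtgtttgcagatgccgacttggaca
Of 1457 windows of 50 bases in the coding alignment, 151 (10.4%) were identical. Over whole transcripts, 6.54% of the 50-base words of Aldh1a1 and 7.49% of those of Aldh1a7 occurred in transcripts of the other. The counting tool and how it treated such reads are not stated in the labels, so both levels carry that uncertainty, but not equally. Aldh1a1 had 116044 counts over all libraries and Aldh1a7 1094, so the same number of misassigned reads would weigh far more on Aldh1a7. How many reads were misassigned was not tested.

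The bases before one of the Aldh1a1 start sites resemble those of Aldh1a7, and are shown because both genes were counted in the same cells at levels far apart. RefSeq gives 2 starts for Aldh1a1, and the sequence before the inner one, chr19:20601718-20601967 on the plus strand, resembles that of Aldh1a7, chr19:20727557-20727806 on the minus strand (both GRCm38.p6, from RefSeq, 250 bases up to the start). Capitals mark the letters CCAAT and, in Aldh1a7, also TATAAA.
Aldh1a1: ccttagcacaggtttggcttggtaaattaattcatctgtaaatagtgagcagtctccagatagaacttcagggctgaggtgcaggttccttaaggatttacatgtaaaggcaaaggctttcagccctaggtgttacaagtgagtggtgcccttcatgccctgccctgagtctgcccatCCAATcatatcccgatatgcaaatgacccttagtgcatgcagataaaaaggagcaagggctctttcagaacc
Aldh1a7: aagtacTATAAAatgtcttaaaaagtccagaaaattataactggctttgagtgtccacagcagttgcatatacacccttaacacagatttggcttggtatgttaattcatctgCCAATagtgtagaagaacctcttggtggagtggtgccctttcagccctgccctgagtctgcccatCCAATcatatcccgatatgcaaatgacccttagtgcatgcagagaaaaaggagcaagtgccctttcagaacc
In the last 100 bases before the start, 94 were the same for the inner Aldh1a1 start, against 30 for the outer one. Over the whole aligned windows the identity to Aldh1a7 was 65.3% for the inner start and 50.9% for the outer one. Both windows shown hold CCAAT on the gene's strand, starting 72 bases before the start. The motifs were searched on both strands, and no match overlapped one of another motif. CCAAT was present in 33.8% of all 32851 RefSeq windows of this length and TATAAA in 12.4%. The core letters GCGTG of aryl hydrocarbon response elements (in 28.2% of windows) and TGACNNNGC of antioxidant response elements (in 10.2%) had no match in either window.

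Aldh1a1, which encodes the retinal dehydrogenase most often used as a stem cell marker, was the most abundant of the 10 genes and rose in CSC. Non-CSC libraries held 15347, 16412 and 17644 counts of it, and CSC libraries 21464, 22168 and 23009. Scaled, these are 489, 473 and 499 CPM against 779, 784 and 793 CPM, so that every CSC library lay at least 1.56-fold above every non-CSC library. The group levels were 487 ± 13.2 CPM and 785 ± 7.18 CPM (SD, n = 3 each). On the log2 scale Aldh1a1 rose by 0.69 (SE 0.034; edgeR quasi-likelihood test, adjusted p = 2.98e-14).

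Aldh1a7, whose product is the rodent-specific relative of ALDH1A1, was low and went the other way. It had 217, 204 and 244 counts in non-CSC and 110, 159 and 160 in CSC, or 6.92, 5.88 and 6.90 CPM against 3.99, 5.62 and 5.52 CPM. The groups did not overlap, but the nearest libraries were only 1.05-fold apart, and CSC replicate 1 lay below the other CSC libraries. Aldh1a7 fell by 0.38 on the log2 scale (SE 0.113, edgeR adjusted p = 0.00604). Without CSC replicate 1 the fall was 0.25 (edgeR adjusted p = 0.0499), and the adjusted p ranged up to that value over 15 other settings. For every 100 counts of Aldh1a1 there were 1.35 ± 0.0911 of Aldh1a7 in non-CSC and 0.642 ± 0.112 in CSC (SD, n = 3 each; exact two-sided permutation p = 0.1, the smallest that 3 against 3 libraries allow).

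The other retinal dehydrogenase genes, Aldh1a2 on chromosome 9 at 71215789 to 71296243 and Aldh1a3 on chromosome 7 at 66390890 to 66427517, were at the edge of detection. Aldh1a2 had 3 counts over all 6 libraries and Aldh1a3 had 7, with at most 2 in a library, so neither was tested and no difference between groups was detectable at this depth. Aldh1a3 had 2, 2 and 1 counts in non-CSC and 0, 1 and 1 in CSC. Among the genes for retinal dehydrogenases of the ALDH1A type, Aldh1a1 therefore held nearly all counts in both groups.

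Aldh1b1, on chromosome 4 at 45799022 to 45804604, was at 0 counts in all 6 libraries. With 186831059 counts in all, a count of 0 allows up to 3 counts, or 0.0161 CPM on plain totals, a limit that covers counting error only. The gene is known to be expressed in many tissues, and the labels name neither the counting tool nor the annotation, so whether the 0 arose in the counting or in the cells was not tested. No exon base of Aldh1b1 is shared with another gene in GENCODE M21, and none of its 50-base words occurs in the transcripts of another gene.

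Aldh2, the main mitochondrial acetaldehyde dehydrogenase gene, fell in CSC. It lies on the minus strand of chromosome 5 at 121566027 to 121593824. The libraries held 12897, 13948 and 14648 counts in non-CSC and 8034, 7952 and 8163 in CSC. This is 411, 402 and 414 CPM against 292, 281 and 281 CPM, with no overlap. The means were 409 ± 6.38 and 285 ± 5.99 CPM (SD, n = 3 each), and Aldh2 fell by 0.52 on the log2 scale (SE 0.035, edgeR adjusted p = 5.60e-12). In non-CSC there were 84.0 ± 0.984 Aldh2 counts for every 100 of Aldh1a1, and in CSC 36.3 ± 1.03 (SD, n = 3 each). Exons of Gm42879 cover 2.54% of the exon bases of Aldh2, and how reads there were counted is not stated in the labels.

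Aldh3a1 had the largest change of the 7 tested genes. It encodes the enzyme that is abundant in the cornea and inducible through the aryl hydrocarbon receptor. Its counts were 228, 265 and 254 in non-CSC and 673, 632 and 705 in CSC, or 7.27, 7.64 and 7.19 CPM against 24.4, 22.3 and 24.3 CPM. The lowest CSC library was 2.92-fold above the highest non-CSC library. The mean rose from 7.36 ± 0.242 to 23.7 ± 1.17 CPM (SD, n = 3 each). This is a rise of 1.68 on the log2 scale (SE 0.067, edgeR adjusted p = 4.31e-16). In absolute size this change was larger than that of 95.0% of the genes tested.

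Aldh3a2 is the neighbour of Aldh3a1 on chromosome 11, with Aldh3a1 at 61207537 to 61218421 on the plus strand and Aldh3a2 at 61223417 to 61267464 on the minus strand. Aldh3a2 also rose, from a much higher level. Its counts were 4398, 5110 and 5218 in non-CSC and 6445, 6514 and 6748 in CSC, or 140, 147 and 148 CPM against 234, 230 and 233 CPM. No CSC library overlapped a non-CSC library, and the log2 fold change was 0.68 ± 0.036 (SE; edgeR adjusted p = 7.32e-14). The rise was smaller than that of its neighbour: per 100 Aldh3a2 counts there were 5.08 ± 0.183 Aldh3a1 counts in non-CSC and 10.2 ± 0.429 in CSC (SD, n = 3 each; exact two-sided permutation p = 0.1).

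Aldh3b1, which encodes a membrane-bound enzyme of lipid-derived aldehydes, fell by little. It lies on the minus strand of chromosome 19 at 3913491 to 3929808. It had 535, 632 and 607 counts in non-CSC and 431, 435 and 437 in CSC, or 17.1, 18.2 and 17.2 CPM against 15.6, 15.4 and 15.1 CPM. The fall was 0.19 on the log2 scale (SE 0.060, edgeR adjusted p = 0.00923), and the call was lost with upper-quartile scaling (adjusted p = 0.0666) and with library size alone (adjusted p = 0.0807). Of its 50-base words, 9.55% occur in other genes, most of them in its neighbour Aldh3b3, which had 2 counts in all.

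Aldh7a1, the lysine pathway enzyme gene, on the minus strand of chromosome 18 at 56509687 to 56572951, did not pass the test. Its levels were 165, 169 and 168 CPM in non-CSC and 159, 162 and 155 CPM in CSC, so the groups did not overlap although the nearest libraries were 1.02-fold apart. Its log2 fold change was -0.08 (SE 0.035, edgeR adjusted p = 0.0607). It passed with RLE scaling (adjusted p = 0.0438), without a filter beyond 1 count (adjusted p = 0.0196), without non-CSC replicate 1 (adjusted p = 0.0223) and without CSC replicate 2 (adjusted p = 0.0358). With library size alone the adjusted p was 0.805. Exons of other genes, Phax among them, cover 9.19% of its exon bases.

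**Figure D1:**
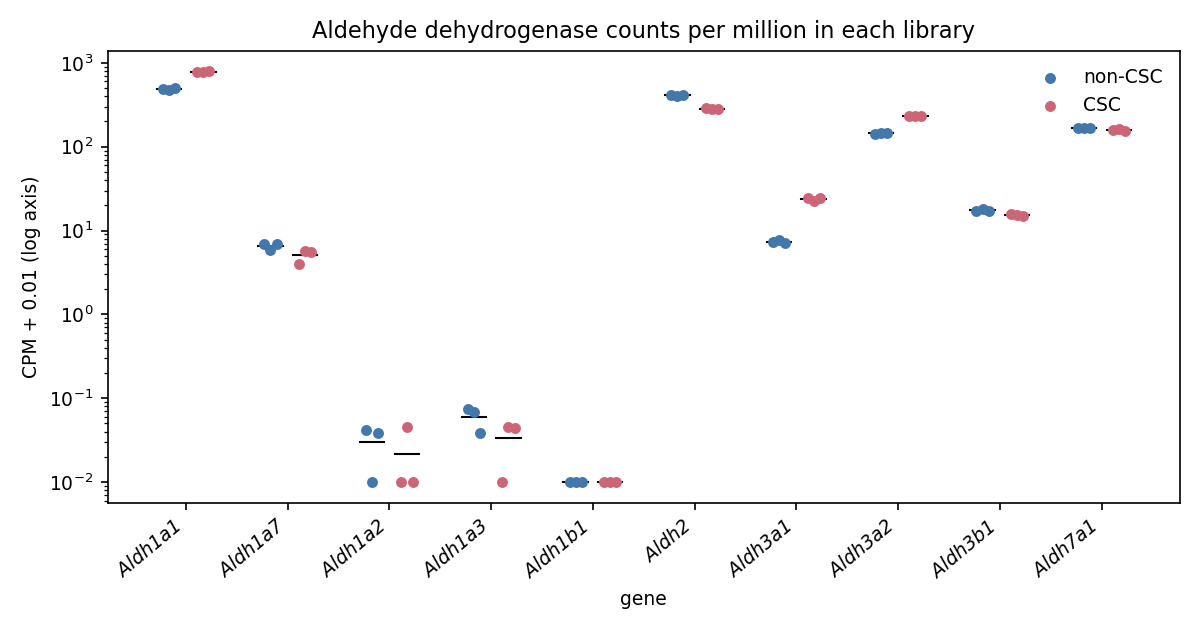
CPM of the 10 genes in each of the 6 libraries, on a log axis after adding 0.01, with non-CSC in blue, CSC in red and a black bar at each group mean. Aldh1a1, Aldh3a1 and Aldh3a2 lie higher in CSC, and Aldh2, Aldh1a7 and, by little, Aldh3b1 lower. Aldh7a1 lies slightly lower but did not pass the test, and Aldh1a2, Aldh1a3 and Aldh1b1 lie at or near 0.

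Of the 7 tested genes, 3 rose, 3 fell and 1 did not pass at an adjusted p under 0.05. Over all 17630 genes tested 66.5% passed, 33.4% higher and 33.1% lower in CSC, so a share of 6 in 7 is not far from the background. That even split of 5894 higher and 5838 lower moved to 6700 and 5066 with upper-quartile scaling and to 6781 and 4970 with library size alone. The CPM of the groups did not overlap for any of the 7, Aldh7a1 included, and this also held for 69.3% of all genes tested. The median log2 fold change of the 7 was -0.08 and that of all genes 0.01. The median absolute change was 0.52 against 0.33 over all genes. Only Aldh3a1 of the 7 changed at least 2-fold, a size reached by 12.1% of all genes tested.

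The shares of the summed counts shifted from Aldh2 to Aldh1a1. In non-CSC, Aldh1a1 held 39.3 ± 0.516% of the counts of the 10 genes and Aldh2 33.0 ± 0.207% (SD, n = 3). In CSC, Aldh1a1 held 52.2 ± 0.490% and Aldh2 18.9 ± 0.367%. Aldh1a1 thus gained 12.9 percentage points and Aldh2 lost 14.1, while both together stayed between 70.9% and 72.8% in every library.

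The smaller shares moved by less. Aldh3a2 went from 11.7 ± 0.356% to 15.4 ± 0.0848% and Aldh7a1 from 13.5 ± 0.266% to 10.6 ± 0.276% (SD, n = 3 each). Aldh3a1 went from 0.594 ± 0.0278% to 1.57 ± 0.0738%, Aldh3b1 from 1.41 ± 0.0692% to 1.02 ± 0.0191%, and Aldh1a7 from 0.529 ± 0.0423% to 0.335 ± 0.0611%. Aldh1a2 and Aldh1a3 each held under 0.01% in both groups and Aldh1b1 none. For each of the 7 tested genes the shares did not overlap between groups. An exact two-sided permutation test could then only give p = 0.1, the smallest possible, and adds nothing to this. For comparison, the CPM of the groups did not overlap for 69.3% of all genes tested. Shares sum to 100%, so a gain of one gene lowers the others: Aldh7a1 lost share although its own level did not pass the test.

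**Figure D2:**
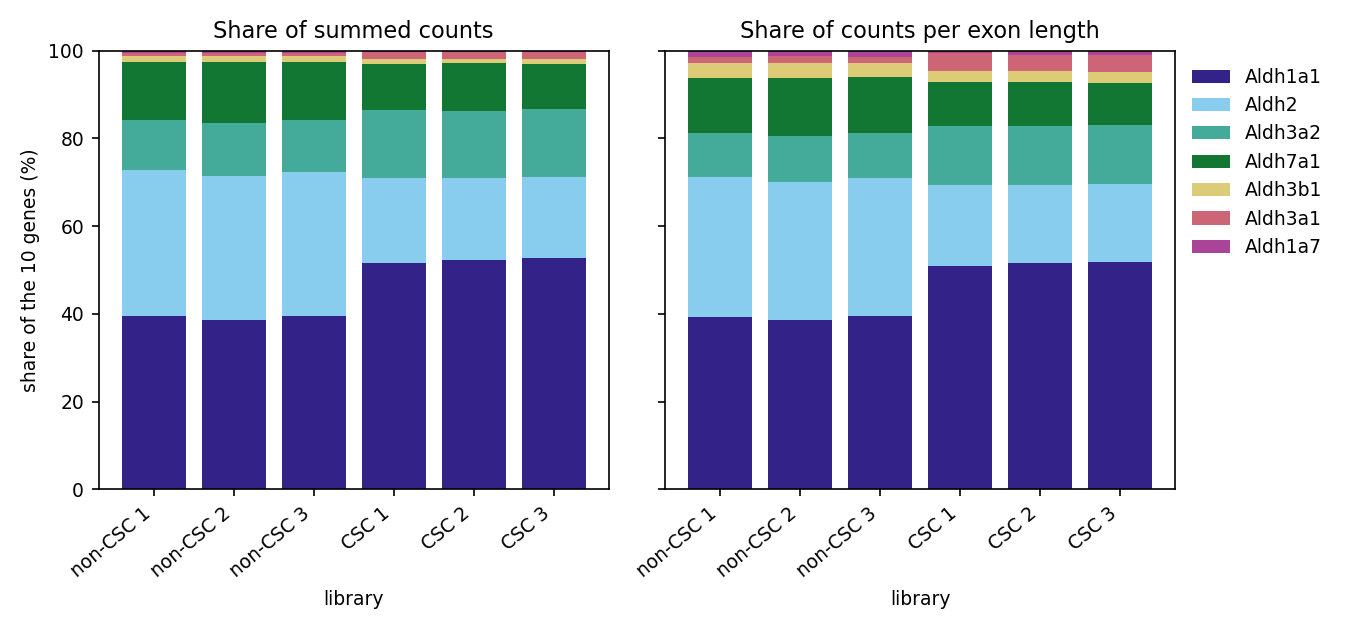
Share of each gene among the 10, in percent, for each library, from summed counts on the left and from counts divided by exon length on the right. Aldh1a1 rises from about 39.3% to 52.2% of summed counts and Aldh2 falls from 33.0% to 18.9%, with like steps after division by length.

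Counts grow with transcript length, so levels of different genes were compared per kilobase of exon. On the exon union of GENCODE M21, the order in non-CSC was Aldh1a1 at 98.7 ± 2.66, Aldh2 at 79.8 ± 1.24, Aldh7a1 at 32.3 ± 0.371 and Aldh3a2 at 25.8 ± 0.751 CPM per kilobase (SD, n = 3). Then came Aldh3b1 at 8.54 ± 0.314, Aldh3a1 at 3.79 ± 0.124 and Aldh1a7 at 3.18 ± 0.288 CPM per kilobase. No 2 neighbours in this order overlapped between libraries. In CSC on the same length, Aldh3a2 at 41.3 ± 0.332 passed Aldh7a1 at 30.6 ± 0.743, and Aldh3a1 at 12.2 ± 0.603 passed Aldh3b1 at 7.51 ± 0.142 CPM per kilobase. Aldh1a1 stood at 159 ± 1.46 and Aldh2 at 55.5 ± 1.17 CPM per kilobase.

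The length chosen bears on the shares. Per exon union length Aldh1a1 held 39.1 ± 0.528% in non-CSC and 51.5 ± 0.455% in CSC. Per length of the longest coding transcript, which for Aldh1a1 is 2358 bases against an exon union of 4937, it held 49.6 ± 0.573% and 61.2 ± 0.433% (SD, n = 3 each). With that length Aldh3a2 was already above Aldh7a1 in non-CSC, at 46.9 ± 1.37 against 40.5 ± 0.465 CPM per kilobase (SD, n = 3 each), so their change of order holds on the exon union only. Aldh3a1 passed Aldh3b1 under either length. With the longest coding transcript Aldh3a2 and Aldh2 overlapped in CSC, at 74.5 to 75.7 and 72.7 to 75.4 CPM per kilobase. Aldh1a1 was first under either length in both groups.

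The summed level of the 10 genes was higher in CSC. Non-CSC libraries summed to 1237, 1223 and 1261 CPM, and CSC libraries to 1508, 1501 and 1507 CPM. The means were 1240 ± 19.0 and 1505 ± 3.95 CPM (SD, n = 3 each), a ratio of 1.21. As a sum over chosen genes it was given no test.

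The genes around each of the 7 were read on the same scale, as the 15 tested genes on each side and, as an alternative, the 7 on each side. Around Aldh2 the median log2 fold change was -0.26 with 15, where 7 of 30 rose and 14 fell. With 7 it was -0.14, where 4 of 14 rose and 5 fell. Around Aldh3b1 on chromosome 19 it was -0.39 with 15, where 21 of 30 fell and 3 rose, and -0.21 with 7, where 9 of 14 fell and none rose. The narrower value lies near the change of Aldh3b1 itself, -0.19, and near the median of chromosome 19 as a whole, -0.24 over 633 tested genes. Around Aldh7a1 the medians were -0.20 and -0.26. Around Aldh1a1 and around Aldh1a7 they were -0.11 and -0.06, around Aldh3a1 -0.11 and -0.22, and around Aldh3a2 -0.11 and -0.16. The part of these neighbourhoods in the levels of the genes was not tested.

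The rest of the superfamily was described from a list of 11 other aldehyde dehydrogenase genes. Of these 7 were tested, 3 higher, 3 lower and 1 not passing, against 33.4% higher and 33.1% lower over all genes tested. Their median log2 fold change was -0.21. Aldh18a1, the enzyme gene for the entry step of proline synthesis, fell from 263 ± 4.04 to 68.0 ± 1.67 CPM (SD, n = 3 each; log2 fold change -1.95, edgeR adjusted p = 4.78e-22). Aldh1l2, a mitochondrial formyltetrahydrofolate dehydrogenase gene, fell from 7.03 ± 0.601 to 1.39 ± 0.0540 CPM (log2 fold change -2.34, edgeR adjusted p = 7.97e-14). Aldh5a1, of GABA breakdown, fell by 0.45 on the log2 scale and Aldh4a1, of proline breakdown, rose by 0.29. Both falls of at least 2-fold in the superfamily were thus outside the 10 genes.

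**Figure D3:**
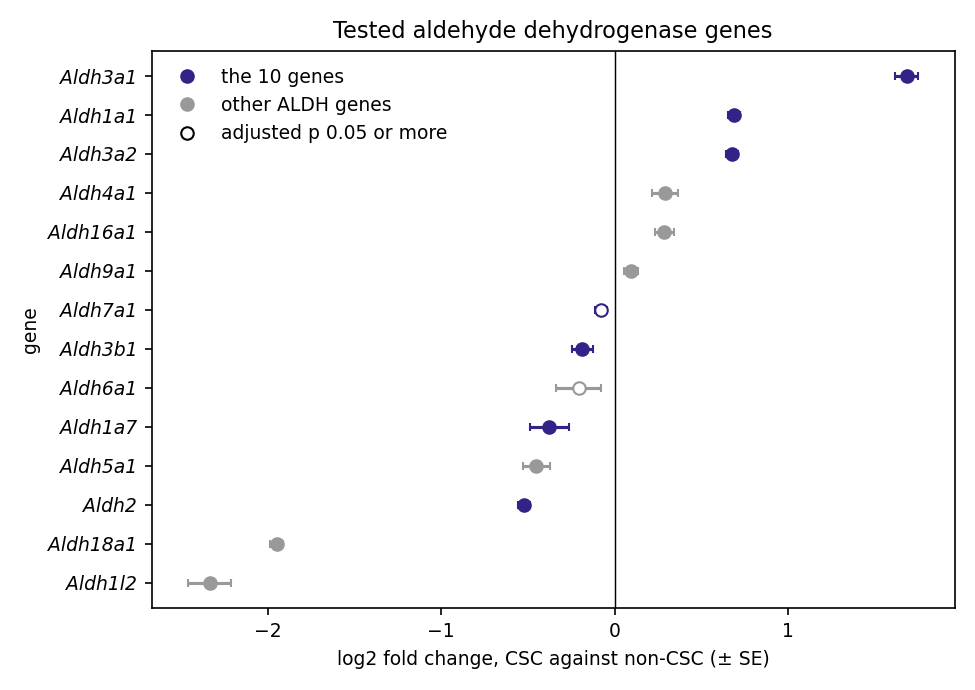
Log2 fold change of CSC against non-CSC with its standard error for the 14 tested aldehyde dehydrogenase genes, the 7 of the 10 in dark blue and 7 others in grey, with open symbols for an adjusted p of 0.05 or more. Aldh3a1 is at 1.68 at the top, and Aldh18a1 at -1.95 and Aldh1l2 at -2.34 are at the bottom.

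Genes that supply retinal, bind retinoids or answer to retinoic acid were taken as the pathway of the ALDH1A enzymes. Of 26 listed, 19 were tested, 8 higher, 10 lower and 1 not passing, against 33.4% higher and 33.1% lower over all genes tested. Their median log2 fold change was -0.20 against 0.01 over all genes. Of the 8 that rose 5 did so at least 2-fold, and of the 10 that fell 1 did. That size was reached by 12.1% of all genes tested.

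Upstream of Aldh1a1, Rdh10, the main retinol dehydrogenase that makes retinal, rose from 8.48 ± 0.429 to 31.8 ± 0.930 CPM (SD, n = 3 each; log2 fold change 1.91, edgeR adjusted p = 1.02e-17). Dhrs3, which turns retinal back into retinol and is itself induced by retinoic acid, rose from 37.6 ± 1.69 to 100.4 ± 5.57 CPM (log2 fold change 1.41). Dhrs9, another retinol dehydrogenase gene, fell from 17.7 ± 0.418 to 1.91 ± 0.376 CPM (log2 fold change -3.20). For Dhrs3 and Dhrs9 the edgeR adjusted p was at most 2.20e-17.

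Some further genes of the list were chosen after their values were seen. Stra6, the receptor for retinol uptake and a gene known to respond to retinoic acid, rose from 411 to 986 CPM (log2 fold change 1.26). Cyp26b1, which degrades retinoic acid, rose by 0.84 on the log2 scale, and Tgm2, a transglutaminase gene known as a retinoic acid target, by 0.82. Rarb, the receptor gene that is itself a target, rose by 1.14 from low levels, 0.278 to 0.611 CPM (edgeR adjusted p = 0.00299). In the other direction, Fabp5, a fatty acid binding protein gene whose product can carry retinoic acid, fell by 0.82, and the retinol dehydrogenase genes Rdh11 and Rdh14 by 0.75 and 0.68. The receptor genes Rara and Rxrb fell by 0.65 and 0.64. Cyp26a1, Crabp1, Lrat and Rxrg were at 0 counts in all libraries, and Crabp2, with 13 counts in all, was not tested. No full list of retinoic acid targets was read, and the targets named in this paragraph were picked with their values known. Whether retinoic acid signalling differed between the groups was not tested.

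**Figure D4:**
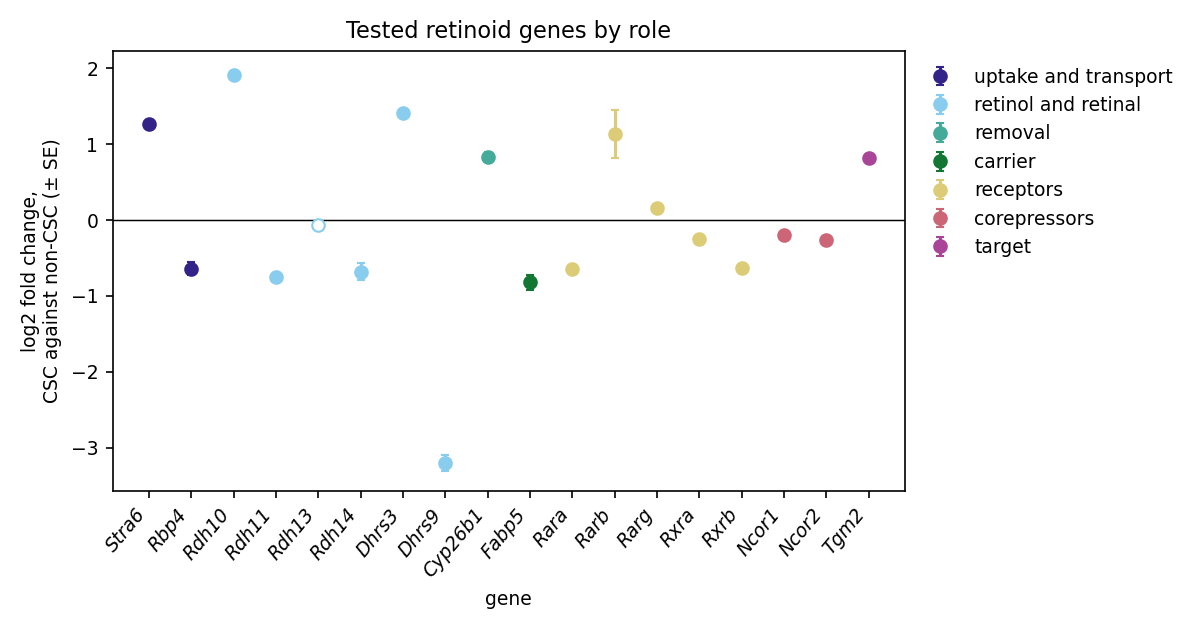
Log2 fold change of CSC against non-CSC with its standard error for 18 of the 19 tested retinoid genes, ordered by role and with an open symbol for an adjusted p of 0.05 or more. Rdh10 is highest at 1.91 and Dhrs9 lowest at -3.20, and each role with several genes except the corepressors holds both rises and falls.

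Other enzymes that make or clear aldehydes moved in both directions. Of 22 listed, 17 were tested, 5 higher, 8 lower and 4 not passing, against 33.4% higher and 33.1% lower over all genes tested. The median log2 fold change of the 17 was -0.12. With upper-quartile scaling or library size alone, 5 were lower. Akr1c14, an aldo-keto reductase gene, rose from 1.82 ± 0.113 to 28.7 ± 0.487 CPM (SD, n = 3 each; log2 fold change 3.97, edgeR adjusted p = 1.84e-21), and Akr1b10 rose by 0.51. Esd, the formylglutathione hydrolase gene of formaldehyde clearance, fell from 312 ± 17.9 to 118 ± 8.81 CPM (log2 fold change -1.41, edgeR adjusted p = 1.18e-12), and Adh7, a retinol-active alcohol dehydrogenase gene, fell by 0.72.

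Aldh3a1 is known to be induced through the aryl hydrocarbon receptor. Of 11 genes listed for this receptor and its other known targets, 7 were tested, 2 higher and 5 lower. Over all genes tested 33.4% were higher and 33.1% lower. The median log2 fold change of the 7 was -0.22. Cyp1b1 rose from 0.783 ± 0.0951 to 2.87 ± 0.233 CPM (SD, n = 3 each; log2 fold change 1.88). Nqo1, a quinone reductase gene, fell by 1.45, Tiparp, a repressor of the receptor, by 1.47, and the partner gene Arnt by 0.22. Cyp1a1, chosen after its value was seen and the most used readout of the receptor, fell by 0.19, from 36.5 to 32.0 CPM (edgeR adjusted p = 0.00242). Chosen in the same way, the receptor gene Ahr rose by 0.17, from 148 to 167 CPM (edgeR adjusted p = 0.000152). Ahrr, also chosen so, fell by 2.98 from low levels, 1.61 to 0.200 CPM (edgeR adjusted p = 4.73e-09). The part of the receptor in the rise of Aldh3a1 was not tested.

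Surface markers used for mammary stem-like cells were set beside Aldh1a1. Of 11 listed, 9 were tested, 4 higher, 4 lower and 1 not passing, against 33.4% higher and 33.1% lower over all genes tested. The median log2 fold change of the 9 was -0.04. Cd24a rose by 0.50 and Lgr5 by 1.29, while Itga6 fell by 0.78 and Epcam by 1.05 on the log2 scale. Cd44, chosen after its value was seen, rose by 0.17 (edgeR adjusted p = 0.000153).

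Markers of other cell types were read in the same libraries, where 33.4% of all genes tested were higher and 33.1% lower in CSC. The summed level of 10 immune markers was 47.8 to 50.8 CPM in non-CSC and 65.4 to 67.8 CPM in CSC; 4 were tested, 3 higher and 1 lower, and Cd3e, Adgre1 and Tyrobp were at 0. Itgam rose by 3.77, Csf1r by 2.12 and Cd14 by 0.56, and Cd68 fell by 0.51 on the log2 scale, while the pan-leukocyte gene Ptprc had 22 counts in all. Of 7 fibroblast markers 3 were tested and all 3 rose, with summed levels of 555 to 589 and 1196 to 1243 CPM, nearly all of it Dcn, the decorin gene (567 and 1212 CPM). Lum was at 0, Col1a2 had 1 count and Col3a1 12. Pdgfra rose by 0.36, a call lost without non-CSC replicate 2 or 3 or CSC replicate 2.

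Endothelial markers summed to at most 0.829 CPM in any library. Of these 6 markers 1 was tested and it was lower, and Tek and Emcn were at 0. Of 7 adipocyte and liver markers, both tissues rich in aldehyde dehydrogenases, 1 was tested and it was lower, and Plin1, Lep and Ttr were at 0. That gene was Alb, the albumin gene, at 188 CPM in non-CSC and 176 CPM in CSC (log2 fold change -0.09, edgeR adjusted p = 0.0324). Its call was lost under 7 of 15 other settings. The part of these cell types in the levels of the 10 genes was not tested.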

How the data were processed

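The authors deposited unnormalized read counts for 6 RNA-seq libraries in 1 table, by gene symbol. The submitters' processing notes name the build GRCm38. Per the labels' protocols, 1.3 ug of Trizol-extracted RNA went into each NEBNext Ultra II library. For the aligner, counter, annotation and strand setting, the sources used here give nothing. Columns were matched to samples by group word and replicate number. No row lacked a gene name.

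The deposited counts were filtered with filterByExpr, scaled with TMM and fitted with edgeR 4.0.16 (quasi-likelihood, robust, no covariate; R 4.3.3), with Benjamini-Hochberg adjustment over the 17630 tested genes and calls at 0.05. The standard error is the log2 fold change divided by the root of F. Replicates of a group differed by more than sampling noise (chi-square per degree of freedom 3.21 to 7.30). All libraries were kept in the main fit. The fit was tested on simulated data. Shares were compared with an exact two-sided permutation test (SciPy 1.17.1). Positions, exon lengths, shared exons and 50-base words came from GENCODE M21, promoters from RefSeq GRCm38.p6, and alignments from Biopython 1.88.

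The 10 genes, the other 10 gene lists and the tests were chosen with earlier results of these data known. By rule, all 10 genes are named, and of each other list up to 4 genes that changed most, given an adjusted p below 0.05 and a mean CPM of 1 or more, markers at 0, and other aldehyde dehydrogenase neighbours. A gene that the rule takes is counted in its list but not reported here. Alternatives were RLE, upper-quartile and library-size scaling, other filters, DESeq2 1.42.0, limma-voom (limma 3.58.1), robust off, a replicate block and leaving out each library.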

Additional observations from a re-analysis of the deposited data

How the results depend on the processing

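Over 15 other settings, the log2 fold changes of the 7 tested genes kept their direction in all 105 values. A call was kept in 88, lost in 2 (Aldh3b1) and gained in 4 (Aldh7a1), and in the other 11, all for Aldh7a1, there was none in either. Aldh1a1 stayed between 0.66 and 0.75, Aldh2 between -0.55 and -0.46, Aldh3a1 between 1.65 and 1.75, and Aldh3a2 between 0.64 and 0.75. Between 5 and 7 of the genes passed, with 3 higher under every setting. All 104 share differences kept their direction. The CSC to non-CSC ratio of the summed level was 1.26 with upper-quartile scaling and 1.27 with library size alone, against 1.21. These scalings moved the median of all genes by 0.06 and 0.07. Across all genes, 9859 to 13055 passed. Both ends came from other filters: 9859 of 13482 tested with a mean of at least 50 counts, and 13055 of 27730 without a filter beyond 1 count. A replicate block left 6 of the 7 called, as without it, and 11680 of all genes. It rests on numbers alone: deviations of same-numbered libraries correlated at -0.01, -0.03 and -0.02. Aldh1a2, Aldh1a3 and Aldh1b1 had too few counts to test, and for Aldh1b1 the cause was not tested.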

Other observations

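Far1, a fatty acyl reductase gene on the list of aldehyde-handling enzymes, had 8 counts over all 6 libraries, and like Aldh1b1 it is known to be expressed in many tissues. Its relative Far2 had 2541 counts and rose by 0.31 on the log2 scale. Both were chosen after their values were seen.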
